A study of Mus musculus with 3 samples.

Results

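Glycolysis and the hypoxia response were followed through 35 genes in cells of mouse dorsal skin after ultraviolet B (UVB) irradiation. The genes were chosen by symbol and cover 2 glucose transporters, 3 hexokinases, 7 enzymes from glucose phosphate to triose phosphate, 5 enzymes from there to pyruvate, 4 genes of lactate handling, 3 enzymes that set the direction of flux, 3 genes of oxygen sensing and 8 targets of the hypoxia response. They matched 36 of the 32285 rows of the count tables, because Aldoa has 2 rows with different identifiers. Of this pair, only ENSMUSG00000030695 reached 1 CPM (UMIs of a gene per 1000000 UMIs) in any class, and it is meant by Aldoa from here on. At least 35 of the 36 rows had a UMI in every library.

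The single-cell 3′ libraries came from CD45+ bead-enriched skin of male C57Bl/6 mice aged 8 weeks, in the telogen phase of the hair cycle, and each group had 1 library. WT_Ctrl was wild-type skin without irradiation, WT_UV was wild-type skin after 3 UVB exposures, and RP_UV was skin of Rosa26-rtTA; Tre-Ptgs2 mice after 3 UVB exposures. In these RP mice doxycycline switches on rat Ptgs2, which encodes Cox-2, wherever the Rosa26 promoter drives the activator, so that the design does not direct it to one cell type. WT_Ctrl and RP_UV shared a flow cell, and WT_UV was sequenced on another one, so sequencing run and group cannot be told apart in any comparison with WT_UV. RP_UV against WT_Ctrl lies within 1 run but differs in both irradiation and genotype.

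Glycolysis splits glucose into pyruvate in the cytosol and yields ATP without oxygen, and lactate dehydrogenase turns pyruvate into lactate, which leaves the cell through monocarboxylate transporters. When oxygen is low, prolyl hydroxylases stop marking the transcription factor Hif1a for breakdown, and Hif1a then raises most glycolytic genes together with genes of mitochondrial turnover and oxygen sparing. Activated macrophages, dendritic cells and neutrophils raise the same genes in normal oxygen, and epidermis, which has no vessels of its own, has a high rate of glycolysis in health.

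After filtering, 5309, 5225 and 6070 cells remained in WT_Ctrl, WT_UV and RP_UV, with a median of 4246, 10557 and 3774 UMIs per cell. Clusters were named from marker genes as macrophage-like, dendritic-like, keratinocyte-like, fibroblast-like and neutrophil-like, and are called by the plain cell name here. There were 1960, 2313 and 2210 macrophages, 566, 553 and 174 dendritic cells, 1191, 519 and 1004 keratinocytes, 208, 6 and 206 fibroblasts, and 15, 60 and 582 neutrophils. With fewer than 50 cells, fibroblasts of WT_UV and neutrophils of WT_Ctrl were left out of all comparisons. Unnamed cells made up 13.4%, 16.4% and 18.1%. Library pairs shared 8 to 11 cell barcodes. Ptgs2, the targeted gene, was counted at 14.4, 117 and 486 CPM over all kept cells of WT_Ctrl, WT_UV and RP_UV. The highest level was in the library labelled for the transgene. How many reads of the rat transgene were counted to the mouse gene was not tested.

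In each class, raw UMIs were summed over the cells of a library and divided by the UMIs of all genes in the class, which gives CPM. Ranges in parentheses are exact 95% intervals, Poisson for levels and conditional binomial for ratios. They cover counting error only, since 1 library per group leaves no replicate error, and no p-value can be given. A gene was called higher or lower when its ratio was at least 1.5 or at most 1/1.5 and the interval left out 1, among genes with a mean of at least 10 CPM in the class, which are called tested below. Such a call is what past the fold means here, so a ratio beyond 1.5 whose interval held 1 is not past the fold. Between 7 and 11 of the 36 rows were under this filter in each class. Since the filter is on a mean over libraries, 11 of the 110 calls of members had a compared level under 10 CPM, and a gene that passes only through its high library had to differ. These 11 were calls of Slc16a1, Slc16a3 and Aldoc in keratinocytes, Slc16a3 in macrophages, and Ddit4 and Slc2a3 in dendritic cells. Where 3 levels of a class follow each other without names, they are in the order WT_Ctrl, WT_UV and RP_UV. The calls compare these libraries, not the conditions in general.

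The main pattern was a broad rise of the enzymes of the pay-off phase and of Ldha, the lactate dehydrogenase subunit that dominates in glycolytic cells. Relative to WT_Ctrl, all 5 enzymes from Gapdh to Pkm were past the fold in macrophages and keratinocytes of RP_UV, where 14.2% and 14.4% of all genes tested were higher, and 4 of the 5 in dendritic cells and in fibroblasts, where 15.5% and 17.4% were. Ldha rose in each of these 4 classes, by 2.08 to 3.7-fold. The hypoxia targets differed between the classes. Over WT_Ctrl, 3 of 7 tested targets were higher in dendritic cells of RP_UV, 1 of 5 in macrophages and 0 of 7 in fibroblasts. The shares of all genes that were higher were 15.5%, 14.2% and 17.4%. In these 3 classes 0 were lower, against 10.8%, 11.4% and 7.05% of all genes. In keratinocytes 0 of 7 were higher and 3, Bnip3, Ndrg1 and P4ha1, were lower, where 19.0% of all genes were lower. The 3 dendritic calls, of Ndrg1, Ero1l and Ddit4, did not hold without a cluster led by Il1b, which is described below. Ndrg1 and Ero1l were then not past the fold, and Ddit4 was under the filter.

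**Figure D1:**
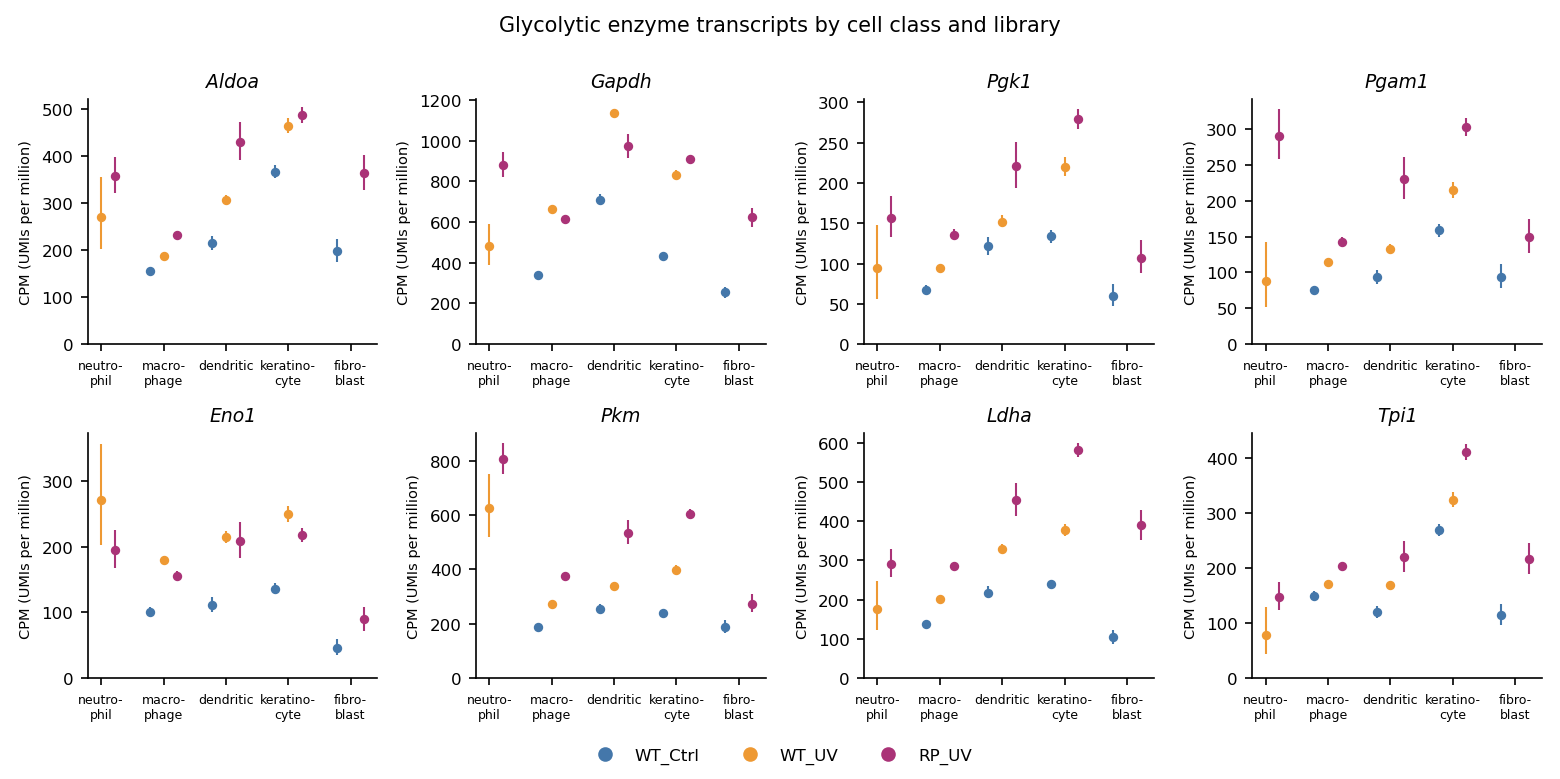
CPM (vertical axis, linear) of 8 glycolytic genes in 5 cell classes (horizontal axis), with 1 point per library and exact 95% Poisson intervals as bars; classes with fewer than 50 cells in a library have no point. RP_UV lies above WT_Ctrl for each gene in each class that has both, as for Ldha in fibroblasts with 105 and 389.

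To see how irradiation changed these genes, WT_UV was compared with WT_Ctrl. In macrophages, 7 of 25 tested members were higher, where 8.1% of all 7650 genes tested were, and 0 were lower, against 3.65% of all genes. The median log2 fold was 0.38 over the tested members and 0.05 over all genes tested. In dendritic cells, 9 of 28 tested members were higher, where 9.61% of all 7097 genes tested were, and 2 were lower, against 5.04% of all genes, with a median of 0.32 over the tested members and 0.04 over all genes tested. In keratinocytes, 9 of 29 tested members were higher, where 5.85% of all 7384 genes tested were, and 1 was lower, against 9.43% of all genes, and the median was 0.06 over the tested members and -0.13 over all genes tested. With TMM factors, the shares of all genes in keratinocytes were 7.54% higher and 5.76% lower, and 9 members were higher and 1 lower as before. The call held under every alternative in which the gene was tested for 6 of 7 members in macrophages, 4 of 11 in dendritic cells and 5 of 10 in keratinocytes. Gapdh, Eno1, Hk2, Ndrg1, Slc16a3 and Hif1a were these 6 in macrophages.

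The corresponding comparison within a single sequencing run was RP_UV against WT_Ctrl. In macrophages, 9 of 25 tested members were higher, where 14.2% of all 7650 genes tested were, and 1 was lower, against 11.4% of all genes, with a median log2 fold of 0.41 over the tested members and 0.06 over all genes tested. In dendritic cells, 13 of 28 tested members were higher, where 15.5% of all 7097 genes tested were, and 3 were lower, against 10.8% of all genes, with a median of 0.44 over the tested members and 0.07 over all genes tested. For keratinocytes, 10 of 29 tested members were higher, where 14.4% of all 7384 genes tested were, and 5 were lower, against 19.0% of all genes, and the median was 0.29 over the tested members and -0.06 over all genes tested. Among fibroblasts, 10 of 29 tested members were higher, where 17.4% of all 8194 genes tested were, and 0 were lower, against 7.05% of all genes, where the median was 0.67 over the tested members and 0.18 over all genes tested. With TMM factors the fibroblast shares of all genes were 11.9% and 10.2%, and 7 members were higher. Here the call held under every alternative in which the gene was tested for 5 of 10, 9 of 16, 11 of 15 and 5 of 10 members, in the same order of classes, where the alternatives for dendritic cells of RP_UV did not include classes from marker UMIs, which left 10 cells. Ldha and Gapdh were among them in macrophages, keratinocytes and fibroblasts, and Ldha, Pkm, Pgk1 and Pgam1 in macrophages, dendritic cells and keratinocytes.

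To examine what Cox-2 overexpression added to irradiation, RP_UV was compared with WT_UV. The members did not move one way. In macrophages, 1 of 25 tested members was higher, where 8.08% of all 7650 genes tested were, and 3 were lower, against 11.5% of all genes, with a median log2 fold of 0.05 over the tested members and -0.02 over all genes tested. In dendritic cells, 5 of 28 tested members were higher, where 9.62% of all 7097 genes tested were, and 4 were lower, against 9.14% of all genes, with a median of 0.04 over the tested members and 0.01 over all genes tested. For keratinocytes, 4 of 29 tested members were higher, where 13.0% of all 7384 genes tested were, and 5 were lower, against 10.6% of all genes, and the median was 0.07 over the tested members and 0.06 over all genes tested. Neutrophils could be compared only here: 7 of 29 tested members were higher, where 5.97% of all 6085 genes tested were, and 2 were lower, against 9.6% of all genes, with a median of 0.28 over the tested members and -0.05 over all genes tested. With TMM factors the shares of all genes were 10.2% and 5.78% in neutrophils, with 9 members higher and 2 lower, and 7.67% and 11.1% in dendritic cells, with 5 higher and 4 lower. Between 1 and 2 calls in each of these 4 classes held under every alternative in which the gene was tested. They were Hk2 and Ndrg1 in macrophages, Pgam1 in dendritic cells, Ldhb and Slc16a1 in keratinocytes, and Slc2a3 and Pgam1 in neutrophils.

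**Figure D2:**
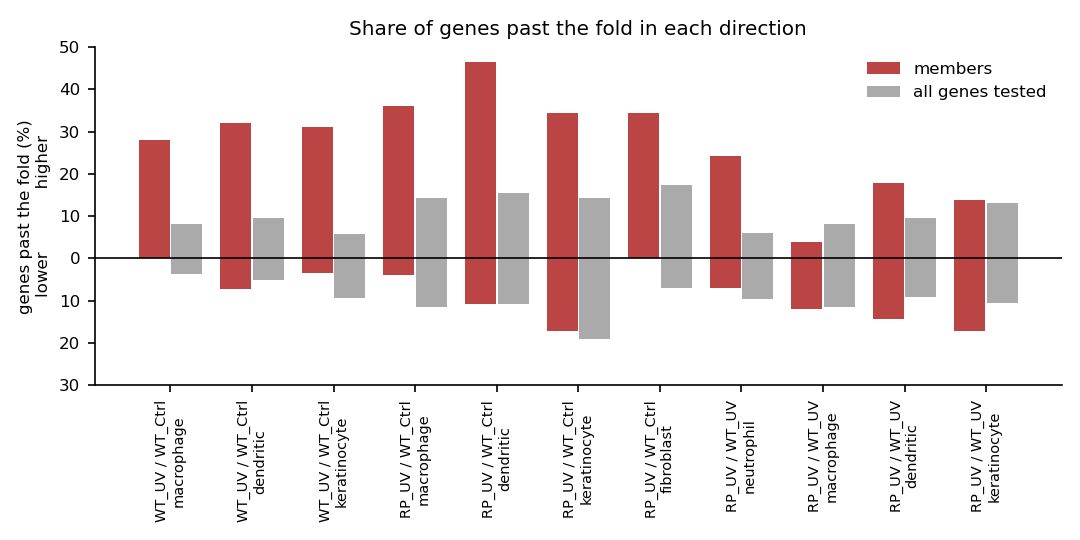
Share of genes past the fold (vertical axis, percent; higher above the zero line, lower below it) for the members that were tested (red) and all genes tested (grey) in each class and comparison (horizontal axis). Against WT_Ctrl the red bars above the line exceed the grey ones in all 7 columns, while for RP_UV over WT_UV in macrophages 1 of 25 members stands beside 8.08% of all genes.

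Gapdh (ENSMUSG00000057666), which oxidises glyceraldehyde phosphate and opens the pay-off phase, stood at 338 (326 to 351) for WT_Ctrl, 666 (657 to 676) for WT_UV and 614 (600 to 629) for RP_UV in macrophages. Both irradiated libraries lay above the control, by 1.97-fold (1.89 to 2.05) and 1.82-fold (1.74 to 1.9). Among keratinocytes its levels were 434 (419 to 449), 833 (812 to 856) and 909 (887 to 931), 1.92-fold (1.84 to 2.01) and 2.1-fold (2.01 to 2.19) above WT_Ctrl. Dendritic cells had 710 (683 to 738), 1136 (1116 to 1157) and 972 (914 to 1033), so that WT_UV was past the fold and RP_UV, at a ratio of 1.37 (1.27 to 1.47), was not. In fibroblasts Gapdh was 2.45-fold (2.14 to 2.8) higher in RP_UV, and in neutrophils it was 1.84-fold (1.48 to 2.3) higher in RP_UV than in WT_UV. Gapdh, Pgk1, Ldha and Eno1 have processed pseudogenes or a near-identical retrogene such as Eno1b, so how their reads were divided is uncertain.

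Pgk1 (ENSMUSG00000062070), phosphoglycerate kinase, makes the first ATP of the pathway. Its levels were 67.6 (62 to 73.6) for WT_Ctrl, 93.9 (90.3 to 97.6) for WT_UV and 136 (129 to 143) for RP_UV in macrophages and 134 (126 to 142), 220 (209 to 232) and 279 (267 to 292) in keratinocytes. The order WT_Ctrl, WT_UV, RP_UV was the same in both classes with no overlap of the intervals, and RP_UV stood 2.01-fold (1.82 to 2.22) and 2.09-fold (1.93 to 2.25) above WT_Ctrl. In dendritic cells and fibroblasts the folds of RP_UV over WT_Ctrl were 1.82-fold (1.54 to 2.13) and 1.78-fold (1.32 to 2.41). In WT_UV, Pgk1 passed the fold over WT_Ctrl in keratinocytes, at 1.65-fold (1.52 to 1.78), but not in macrophages, at a ratio of 1.39 (1.26 to 1.53), or dendritic cells, at 1.25 (1.13 to 1.39). In neutrophils it was 1.67-fold (1.02 to 2.89) higher in RP_UV than in WT_UV.

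Pgam1, phosphoglycerate mutase, was the pay-off enzyme with the highest fold in neutrophils, where it stood at 88.7 (51.7 to 142) for WT_UV and 291 (258 to 328) for RP_UV, 3.28-fold (2.01 to 5.72) higher. In macrophages of WT_UV it was 1.52-fold (1.39 to 1.66) above WT_Ctrl, a call that ended under 4 of 9 alternatives. RP_UV was above WT_Ctrl in macrophages by 1.9-fold (1.73 to 2.1), in dendritic cells by 2.48-fold (2.09 to 2.93), in keratinocytes by 1.91-fold (1.78 to 2.05) and in fibroblasts by 1.59-fold (1.25 to 2.03). Eno1, enolase, did not follow the order of Pgk1. Its levels were 101 (94.3 to 108) for WT_Ctrl, 180 (175 to 185) for WT_UV and 156 (148 to 163) for RP_UV in macrophages, 112 (101 to 123), 215 (206 to 224) and 209 (182 to 238) in dendritic cells and 136 (128 to 145), 249 (237 to 262) and 217 (207 to 228) in keratinocytes. All 3 classes had WT_UV at or above RP_UV, and both above WT_Ctrl, by 1.54 to 1.92-fold. Neutrophils had Eno1 at a ratio of 0.718 (0.525 to 0.997) between RP_UV and WT_UV, which was not past the fold, and fibroblasts had it 1.93-fold (1.38 to 2.71) higher in RP_UV than in WT_Ctrl.

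Pkm (ENSMUSG00000032294), pyruvate kinase, closes the pathway. It stood at 187 (178 to 197) for WT_Ctrl, 272 (266 to 278) for WT_UV and 376 (364 to 387) for RP_UV in macrophages, 256 (240 to 273), 338 (327 to 349) and 535 (492 to 581) in dendritic cells and 241 (230 to 252), 399 (384 to 415) and 604 (586 to 622) in keratinocytes. In all of them RP_UV was the highest library, 2.01-fold (1.89 to 2.13), 2.09-fold (1.88 to 2.32) and 2.51-fold (2.37 to 2.65) above WT_Ctrl. The step from WT_UV to RP_UV alone was 1.58-fold (1.45 to 1.73) in dendritic cells and 1.51-fold (1.44 to 1.59) in keratinocytes, and 1.38 (1.33 to 1.43) as a ratio in macrophages, which missed the fold. The keratinocyte call of this step held under 5 of 10 alternatives and was lost with TMM and DESeq2 factors. The dendritic call of it was lost without a cluster led by Il1b, described below. Fibroblasts had 188 (165 to 213) for WT_Ctrl and 274 (244 to 308) for RP_UV, a ratio of 1.46 (1.23 to 1.74) that also missed it, and neutrophils had 626 (519 to 749) for WT_UV and 806 (750 to 865) for RP_UV, a ratio of 1.29 (1.06 to 1.57). The reads of a 3′ library do not separate the splice forms M1 and M2 of Pkm.

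Ldha (ENSMUSG00000063229) rose most in fibroblasts, where it stood at 105 (88.2 to 124) for WT_Ctrl and 389 (352 to 428) for RP_UV, 3.7-fold (3.04 to 4.53) higher. Its levels were 137 (129 to 145) for WT_Ctrl, 202 (197 to 208) for WT_UV and 287 (278 to 297) for RP_UV in macrophages, 218 (204 to 234), 330 (319 to 341) and 454 (414 to 496) in dendritic cells and 239 (228 to 250), 377 (363 to 392) and 580 (562 to 598) in keratinocytes. The 3 libraries stood in the order WT_Ctrl, WT_UV, RP_UV in each of these classes, without overlap of the intervals. The folds of RP_UV over WT_Ctrl were 2.1-fold (1.96 to 2.25), 2.08-fold (1.85 to 2.33) and 2.43-fold (2.3 to 2.57). In neutrophils Ldha stood at 177 (123 to 248) for WT_UV and 292 (259 to 329) for RP_UV, 1.65-fold (1.15 to 2.43) higher in RP_UV, a call that was lost with cells thinned to 1000 UMIs and with classes taken from marker UMIs.

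**Figure D3:**
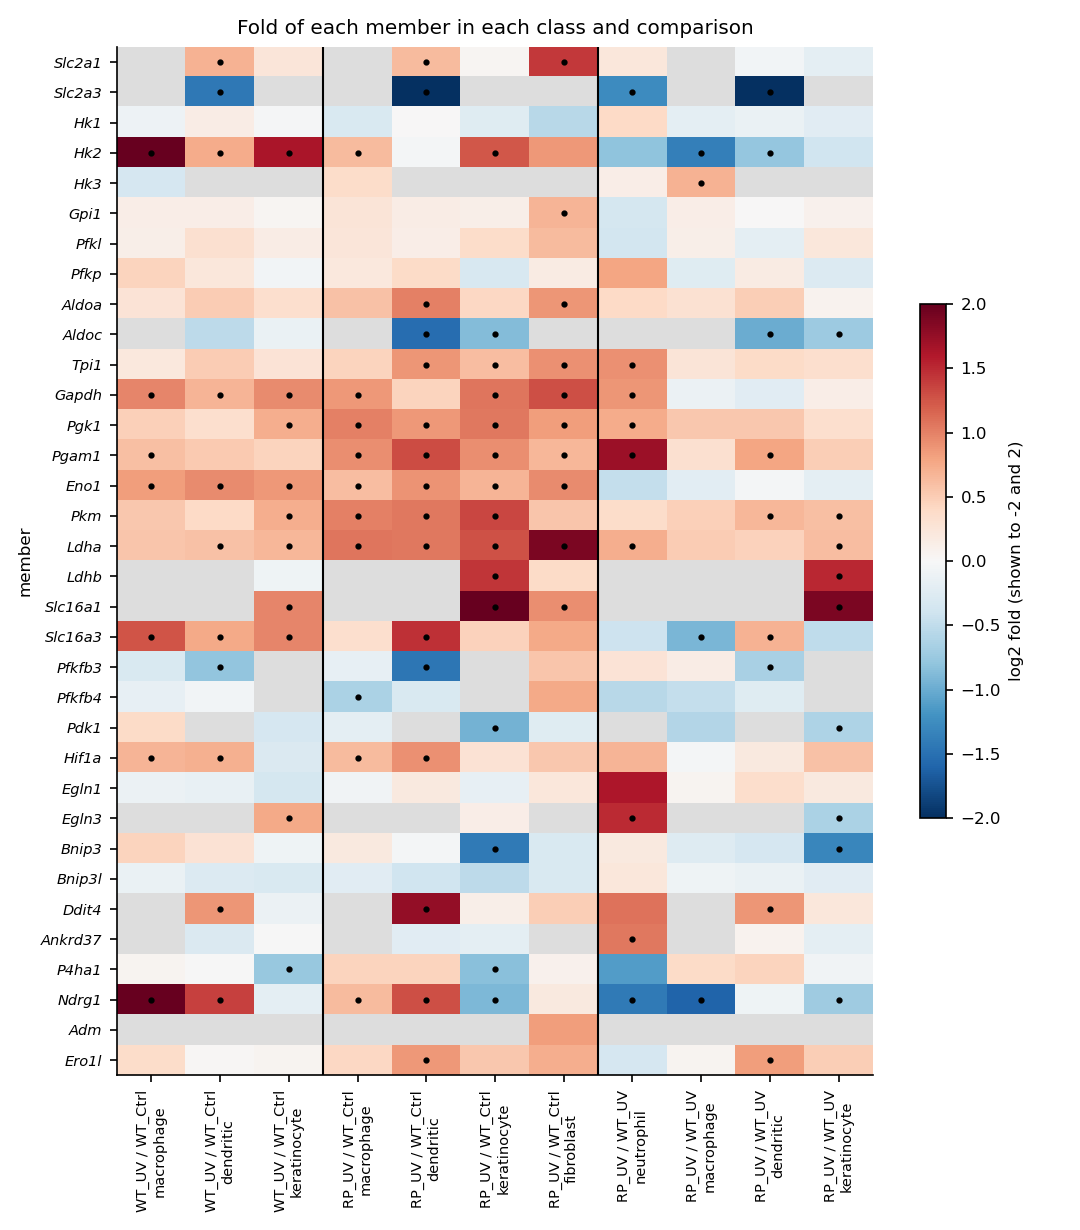
Log2 fold (colour, limited to -2 and 2) of the members (vertical axis, ordered by role) in 11 pairs of class and comparison (horizontal axis); grey cells were under the filter on low levels, black dots mark calls, and black lines separate the comparisons. Pfkm, under the filter in all classes, is not drawn. The rows from Gapdh to Ldha are red across the 4 columns of RP_UV over WT_Ctrl, while Slc2a3, Aldoc, Pdk1 and Bnip3 hold blue cells.

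The enzymes before the triose phosphates changed less. In macrophages no member of this group passed the fold in any comparison. Aldoa, aldolase, stood at 155 (146 to 164) for WT_Ctrl, 187 (182 to 192) for WT_UV and 232 (224 to 241) for RP_UV in macrophages and 366 (353 to 380), 464 (448 to 481) and 487 (471 to 503) in keratinocytes, with ratios of RP_UV over WT_Ctrl of 1.5 (1.4 to 1.61), just under the limit before rounding, and 1.33 (1.26 to 1.4). It passed the fold in dendritic cells, from 215 (200 to 230) to 430 (392 to 472), and in fibroblasts, from 197 (174 to 223) to 363 (327 to 401). In neutrophils its ratio of RP_UV over WT_UV was 1.32 (0.983 to 1.8). Tpi1, triose phosphate isomerase, was 1.84-fold (1.56 to 2.16), 1.53-fold (1.44 to 1.62) and 1.87-fold (1.52 to 2.32) higher in RP_UV than in WT_Ctrl in dendritic cells, keratinocytes and fibroblasts, and 1.89-fold (1.11 to 3.47) higher than in WT_UV in neutrophils. Gpi1, the isomerase of glucose phosphate, passed the fold in fibroblasts, at 1.6-fold (1.17 to 2.19), and this call was lost under 5 of 9 alternatives. Pfkl and Pfkp, subunits of phosphofructokinase, were called in no class, although the ratio was 1.72 (0.946 to 3.45) for Pfkp in neutrophils and 1.55 (0.654 to 3.78) for Pfkl in fibroblasts, with intervals that held 1. Pfkm, the muscle subunit, was under the filter in all 5 classes.

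Aldoc, the aldolase otherwise known from brain, went the other way. Its levels in dendritic cells were 51.1 (44.1 to 58.9) for WT_Ctrl, 35.6 (32 to 39.4) for WT_UV and 17.9 (10.8 to 27.9) for RP_UV, lower in RP_UV than in WT_Ctrl by a factor of 2.86 (1.78 to 4.86) and than in WT_UV by 1.99 (1.26 to 3.35). With cells thinned to 1000 UMIs both dendritic ratios turned to the other side of 1, with log2 folds of 0.18 and 0.09. In keratinocytes Aldoc was lower in RP_UV by factors of 1.83 (1.32 to 2.55) and 1.65 (1.18 to 2.33).

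At the entry of the pathway, Slc2a1 and Slc2a3 carry glucose into the cell. Slc2a1 (ENSMUSG00000028645), the ubiquitous form, stood at 26 (21 to 31.7) for WT_Ctrl, 42.1 (38.2 to 46.2) for WT_UV and 40.4 (29.3 to 54.4) for RP_UV in dendritic cells, past the fold over WT_Ctrl in both irradiated libraries, and at 11.6 (6.49 to 19.1) for WT_Ctrl and 31.1 (21.4 to 43.7) for RP_UV in fibroblasts, 2.68-fold (1.42 to 5.31) higher in RP_UV. Keratinocytes had 48.4 (43.5 to 53.6), 57 (51.5 to 63.1) and 49.9 (44.8 to 55.3), within a ratio of 1.5 in each comparison. In macrophages it stayed under the filter, at 2.66, 11.8 and 6.37 CPM. Neutrophils had the highest level of it in both irradiated libraries, 177 (123 to 248) for WT_UV and 207 (179 to 238) for RP_UV, which did not differ past the fold.

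Slc2a3 (ENSMUSG00000003153), the high-affinity form, had the largest fall of all members. In dendritic cells it stood at 109 (98.8 to 120) for WT_Ctrl, 40.5 (36.7 to 44.6) for WT_UV and 8.46 (3.87 to 16.1) for RP_UV. The intervals of the 3 libraries did not overlap, and RP_UV was lower than WT_Ctrl by a factor of 12.9 (6.73 to 28.4) and than WT_UV by 4.79 (2.5 to 10.5), while WT_UV was lower than WT_Ctrl by 2.7 (2.35 to 3.1). The value of RP_UV rests on 9 UMIs. In neutrophils Slc2a3 stood at 376 (294 to 473) for WT_UV and 157 (133 to 184) for RP_UV, lower in RP_UV by a factor of 2.4 (1.78 to 3.2). In macrophages, keratinocytes and fibroblasts it was at or below 3.67 CPM in each library.

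The cluster that held the largest share of dendritic cells was one in WT_Ctrl and another in both irradiated libraries. In WT_Ctrl, 37.3% were in a cluster led by Apod and Cd209e, and in WT_UV and RP_UV 45.2% and 69.5% were in a cluster led by Il1b and Mmp12, to which WT_Ctrl gave 7 cells. The summed level of 10 macrophage markers in dendritic cells was 1087, 1902 and 2705 CPM, and that of 9 dendritic markers was 1394, 1276 and 1133, with none of the 9 at 0. If all UMIs of C1qa and C1qb there came from macrophage RNA, that RNA could bring at most 10.5% of the level of any tested member in dendritic cells of RP_UV. The part of this makeup in the dendritic results was not tested. With classes taken from the marker UMIs of each cell, 160, 75 and 10 dendritic cells remained, so RP_UV could not be compared. In WT_UV over WT_Ctrl, 4 of 28 tested members were then higher and 6 lower in place of 9 and 2. Of all 7080 genes tested in that setting, 7.25% were higher and 8.21% lower. Without the cluster led by Il1b, which left 53 dendritic cells in RP_UV, Slc2a3 was still lower in RP_UV than in WT_Ctrl, at a log2 fold of -4.10, and Ldha was still past the fold. Calls of RP_UV over WT_Ctrl that ended without it were those of Slc2a1, Eno1, Hif1a, Ndrg1 and Ero1l. The total of members that were higher then was 7 of 27 tested, where 14.3% of all 7249 genes tested were higher.

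Hexokinases trap glucose in the cell by phosphorylation. Hk2 (ENSMUSG00000000628), the inducible form, stood at 18.9 (16 to 22.2) for WT_Ctrl, 75.3 (72.1 to 78.6) for WT_UV and 29.3 (26.3 to 32.6) for RP_UV in macrophages. WT_UV was the highest, 3.99-fold (3.38 to 4.74) above WT_Ctrl, and RP_UV, 1.55-fold (1.28 to 1.9) above WT_Ctrl, was lower than WT_UV by a factor of 2.57 (2.29 to 2.89). Keratinocytes had 14 (11.5 to 16.9), 43.6 (38.7 to 48.9) and 33.1 (29 to 37.6), with both irradiated libraries past the fold over WT_Ctrl, by 3.11-fold (2.48 to 3.92) and 2.36-fold (1.87 to 3). Dendritic cells had 78.4 (69.6 to 88), 131 (124 to 138) and 76.1 (60.5 to 94.6), where WT_UV was 1.67-fold (1.47 to 1.91) above WT_Ctrl and RP_UV was close to the control, lower than WT_UV by a factor of 1.72 (1.38 to 2.18). Hk1, the housekeeping form, passed the fold in no class. Hk3, the myeloid form, stood at 38.8 (34.5 to 43.4), 30.8 (28.8 to 32.9) and 50.1 (46.1 to 54.4) in macrophages, 1.63-fold (1.46 to 1.81) higher in RP_UV than in WT_UV.

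**Figure D4:**
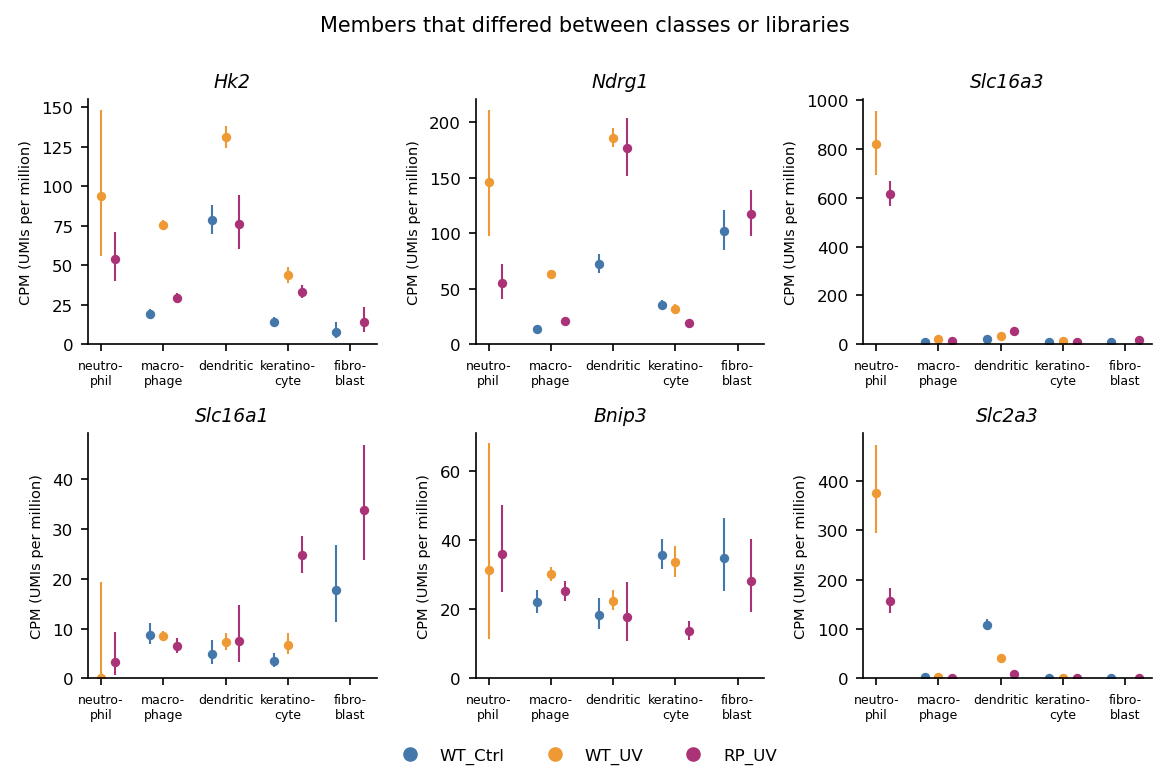
CPM (vertical axis, linear, with its own range in each panel) of 6 members in 5 cell classes (horizontal axis), with 1 point per library and exact 95% Poisson intervals as bars. WT_UV stands above both other libraries for Hk2 in macrophages (18.9, 75.3 and 29.3 in the order WT_Ctrl, WT_UV, RP_UV), RP_UV stands above both for Slc16a1 in keratinocytes (3.44, 6.74 and 24.7), and Slc16a3 is at 820 and 616 in neutrophils of WT_UV and RP_UV.

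Among the lactate genes, Slc16a1 and Ldhb were higher in keratinocytes of RP_UV than in those of WT_Ctrl and WT_UV. Slc16a1 (ENSMUSG00000032902), the transporter MCT1 that carries lactate either way across the membrane, stood at 3.44 (2.24 to 5.03) for WT_Ctrl, 6.74 (4.91 to 9.02) for WT_UV and 24.7 (21.2 to 28.7) for RP_UV in keratinocytes, 7.2-fold (4.75 to 11.3) above WT_Ctrl and 3.67-fold (2.63 to 5.21) above WT_UV. Ldhb (ENSMUSG00000030246), the subunit that favours pyruvate, stood at 47.8 (43 to 53), 45.4 (40.4 to 50.8) and 129 (121 to 138), 2.7-fold (2.39 to 3.05) and 2.84-fold (2.49 to 3.25) above WT_Ctrl and WT_UV. Slc16a1 passed the filter only through RP_UV, so its folds are a description. For both genes RP_UV alone was high, and for Ldhb the intervals of WT_Ctrl and WT_UV overlapped. The calls of RP_UV held for Ldhb under every alternative and for Slc16a1 under the 8 in which it was tested. For Slc16a1 this is no separate support, since its pass of the filter rests on RP_UV. With basal-like clusters alone the log2 folds over WT_Ctrl were 3.08 for Slc16a1 and 1.82 for Ldhb. The smaller fold of Slc16a1 in WT_UV over WT_Ctrl, 1.96-fold (1.18 to 3.31), lies between 2 levels under 10 CPM and turned to the other side of 1 under 3 alternatives. In fibroblasts Slc16a1 stood at 17.8 for WT_Ctrl and 33.9 for RP_UV, 1.91-fold (1.1 to 3.37) higher in RP_UV. Fibroblasts thus had the highest level of it among the classes in both libraries. In RP_UV their ratio to keratinocytes was 1.37 (0.93 to 1.97).

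Slc16a3 (ENSMUSG00000025161), the exporter MCT4 of glycolytic cells, stood at 9.5 (7.47 to 11.9) for WT_Ctrl, 22.6 (20.8 to 24.4) for WT_UV and 12 (10 to 14.1) for RP_UV in macrophages, 19.2 (15 to 24.2), 32.5 (29.1 to 36.2) and 52.6 (39.8 to 68.4) in dendritic cells and 820 (696 to 958) for WT_UV and 616 (567 to 669) for RP_UV in neutrophils. In macrophages WT_UV was the high library, 2.37-fold (1.87 to 3.06) above WT_Ctrl and above RP_UV by a factor of 1.89 (1.57 to 2.29). In dendritic cells the level rose at each step, by 1.69-fold (1.31 to 2.22) and then 1.62-fold (1.2 to 2.15), to 2.74-fold (1.9 to 3.95) over WT_Ctrl. The calls of both steps were lost with thinned cells and without the cluster led by Il1b. The first was also lost with classes from marker UMIs, at a log2 fold of -0.42, and the second with means over cells. Keratinocytes had 7 (5.25 to 9.16), 13.8 (11.1 to 16.9) and 9.64 (7.5 to 12.2), with WT_UV 1.97-fold (1.39 to 2.81) above WT_Ctrl. If all UMIs of S100a8 and S100a9 in keratinocytes of RP_UV came from neutrophil RNA, that RNA would bring at most 36.1% of their Slc16a3 level, and no more than 4.7% of that of any tested member in WT_UV keratinocytes. For neutrophil RNA, Slc16a3 was the 1 tested member with a share above 5% in any other class.

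Keratinocytes of the 3 libraries differed in makeup. Basal-like clusters held 881 of the 1191 keratinocytes of WT_Ctrl, 230 of the 519 of WT_UV and 610 of the 1004 of RP_UV. The cluster that held most of them was led by Krt15 in WT_Ctrl, by Krt10 and Krt1 in WT_UV and by Krt16 and Krt14 in RP_UV and held 18%, 13.7% and 13.2% of the class. Neutrophil markers summed to 2.51, 28.9 and 224 CPM in keratinocytes, with 3, 2 and 1 of the 8 at 0, macrophage markers to 62.5, 165 and 373, and follicle keratinocyte markers to 4648, 11909 and 12756. Basal markers summed to 17326, 14468 and 20568 CPM and suprabasal ones to 12738, 16726 and 11210. The part of these markers in the keratinocyte results was not tested. With basal-like clusters alone, 8 of 28 tested members were higher and 3 lower in RP_UV than in WT_Ctrl. Of all 7508 genes tested there, 19.5% were higher and 19.5% lower. Ldha and Pkm were among the higher members, at log2 folds of 1.28 each. The calls of Hk2, Tpi1 and P4ha1 ended.

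The switch enzymes set the direction of flux, Pfkfb3 and Pfkfb4 through fructose bisphosphate and Pdk1 by closing the entry of pyruvate into mitochondria. No call among them was in the higher direction. Pfkfb3 stood at 79.2 (70.4 to 88.8) for WT_Ctrl, 45.7 (41.6 to 50) for WT_UV and 29.1 (19.8 to 41.4) for RP_UV in dendritic cells, WT_UV being lower than WT_Ctrl by a factor of 1.73 (1.49 to 2.01), RP_UV lower than WT_Ctrl by 2.72 (1.87 to 4.07) and lower than WT_UV by 1.57 (1.09 to 2.33). Pfkfb4 was lower in macrophages of RP_UV than in those of WT_Ctrl, by a factor of 1.56 (1.3 to 1.88), a call that ended under 3 of 8 alternatives. Pdk1, a textbook Hif1a target, stood at 33 (29.1 to 37.4), 26.2 (22.5 to 30.4) and 17 (14.2 to 20.4) in keratinocytes, lower in RP_UV by a factor of 1.94 (1.55 to 2.43) against WT_Ctrl and 1.54 (1.21 to 1.95) against WT_UV.

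Hif1a (ENSMUSG00000021109), the oxygen-regulated transcription factor, is controlled mainly as a protein, which these libraries do not measure. Its transcript stood at 47.3 (42.6 to 52.3) for WT_Ctrl, 75.6 (72.3 to 78.9) for WT_UV and 73.5 (68.6 to 78.6) for RP_UV in macrophages, past the fold over WT_Ctrl in both irradiated libraries, by 1.6-fold (1.43 to 1.79) and 1.56-fold (1.38 to 1.76). Dendritic cells had 30.5 (25.2 to 36.7), 50 (45.8 to 54.5) and 57.3 (43.9 to 73.7), 1.64-fold (1.33 to 2.03) and 1.88-fold (1.35 to 2.59) above WT_Ctrl. Both dendritic calls were lost without the cluster led by Il1b. With classes from marker UMIs the log2 fold of WT_UV over WT_Ctrl was -0.21. In keratinocytes, at 71.8 (65.8 to 78.1), 58.7 (53 to 64.8) and 87.5 (80.8 to 94.6), no ratio passed the fold. Fibroblasts had 51.8 and 75.4 CPM in WT_Ctrl and RP_UV, and neutrophils 52.2 and 83.7 in WT_UV and RP_UV. The fibroblast ratio, 1.46 (1.04 to 2.04), was under the limit, and the neutrophil ratio, 1.6 (0.827 to 3.47), was beyond it with an interval that held 1.

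Egln1 and Egln3 are prolyl hydroxylases that mark Hif1a for breakdown, and Egln3 is itself induced by it. Egln1 was called in no class. Its ratio of 3.04 (0.772 to 26.3) in neutrophils rested on 2 UMIs in WT_UV. Egln3 stood at 25.5 (22 to 29.4) for WT_Ctrl, 43.3 (38.4 to 48.6) for WT_UV and 28 (24.2 to 32.1) for RP_UV in keratinocytes, with WT_UV as the high library, 1.7-fold (1.41 to 2.05) above WT_Ctrl and above RP_UV by a factor of 1.55 (1.29 to 1.86). In neutrophils it stood at 26.1 (8.47 to 60.9) for WT_UV and 73.1 (56.9 to 92.5) for RP_UV, the opposite order, with RP_UV 2.8-fold (1.14 to 8.9) higher on 5 UMIs in WT_UV. Macrophages, dendritic cells and fibroblasts had less than 2 CPM of it.

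Of the hypoxia targets, Ndrg1 (ENSMUSG00000005125), a stress-response gene, was past the fold in 4 classes. It stood at 13.4 (11 to 16.2) for WT_Ctrl, 63.4 (60.5 to 66.4) for WT_UV and 20.9 (18.3 to 23.7) for RP_UV in macrophages, 4.72-fold (3.88 to 5.8) higher in WT_UV than in WT_Ctrl, 1.55-fold (1.23 to 1.97) higher in RP_UV than in WT_Ctrl, and lower in RP_UV than in WT_UV by a factor of 3.04 (2.65 to 3.49). The macrophage call of RP_UV over WT_Ctrl was lost with classes from marker UMIs. Dendritic cells had 72.4 (64 to 81.7), 186 (178 to 195) and 177 (152 to 204), and both irradiated libraries were above the control, by 2.57-fold (2.26 to 2.93) and 2.44-fold (2.01 to 2.95). The second of these calls was lost with thinned cells and without the cluster led by Il1b. Keratinocytes had 35.7 (31.5 to 40.2), 31.3 (27.2 to 35.8) and 19.1 (16.1 to 22.6), where RP_UV was the low library, by factors of 1.86 (1.51 to 2.31) and 1.63 (1.31 to 2.04). In neutrophils Ndrg1 was lower in RP_UV by a factor of 2.65 (1.61 to 4.28).

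Bnip3 and Bnip3l direct mitochondria to autophagy. Bnip3 (ENSMUSG00000078566) stood at 35.9 (31.8 to 40.5) for WT_Ctrl, 33.7 (29.4 to 38.4) for WT_UV and 13.6 (11 to 16.5) for RP_UV in keratinocytes, lower in RP_UV by factors of 2.65 (2.1 to 3.38) and 2.49 (1.95 to 3.19), and not past the fold in other classes. Bnip3l passed the fold nowhere. P4ha1, a prolyl hydroxylase of collagen, stood at 36.2 (32 to 40.8), 21.4 (18 to 25.2) and 20.4 (17.2 to 24) in keratinocytes, where both irradiated libraries were lower than WT_Ctrl, by factors of 1.69 (1.38 to 2.08) and 1.77 (1.45 to 2.18). In fibroblasts, which make collagen, it stood at 104 (87.5 to 123) for WT_Ctrl and 111 (92 to 133) for RP_UV.

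Ddit4, an inhibitor of mTOR signalling, stood at 9.19 (6.36 to 12.8) for WT_Ctrl, 16.9 (14.5 to 19.6) for WT_UV and 31 (21.4 to 43.6) for RP_UV in dendritic cells, where RP_UV was 3.37-fold (2.03 to 5.62) above WT_Ctrl and 1.84-fold (1.22 to 2.68) above WT_UV, which was 1.84-fold (1.27 to 2.74) above WT_Ctrl. Without the cluster led by Il1b, Ddit4 was under the filter, and its log2 folds were -0.49 and -0.91. Ero1l, the oxidase of disulfide formation, was 1.81-fold (1.19 to 2.71) and 1.78-fold (1.23 to 2.53) higher in dendritic cells of RP_UV than in those of WT_Ctrl and WT_UV. Ankrd37, a short ankyrin protein, was 2.08-fold (1.01 to 4.98) higher in neutrophils of RP_UV than of WT_UV. Adm, which encodes the vasodilator adrenomedullin, was tested in fibroblasts alone, at 17 (10.7 to 25.7) for WT_Ctrl and 30.1 (20.6 to 42.6) for RP_UV, a ratio of 1.77 (0.999 to 3.2) whose interval just held 1.

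Neutrophils of WT_UV and RP_UV also came from different clusters. A cluster led by S100a9, S100a8, Il1b and Cxcl2 held 85% of the 60 neutrophils of WT_UV and 19.2% of the 582 of RP_UV, and another one with the same leading genes held 50.3% of those of RP_UV. Macrophage markers summed to 559 and 1140 CPM in neutrophils, and 6 basal keratinocyte markers to 78.3 and 321, with 2 and 0 of them at 0. Their part in the neutrophil calls was not tested. The sums rested on 191574 and 944059 UMIs. With cells thinned to 1000 UMIs, 2 of 29 tested members were higher in place of 7. The share of all genes tested that were higher was then 2.37% in place of 5.97%.

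Fibroblasts had 1294126 and 1061550 UMIs in WT_Ctrl and RP_UV. The 7 fibroblast markers, 3 of them collagen genes, summed to 115205 CPM in WT_Ctrl and 38583 in RP_UV, and so fell while the members rose. The median log2 fold over all genes was 0.18. The part of this fall in the folds of the members was not tested. In the same cells the neutrophil markers went from 35.5 to 225 CPM, with 5 and 1 of the 8 at 0, and the macrophage markers from 447 to 763. Their part in the fibroblast results was not tested. The cluster that held 53.8% of the fibroblasts of WT_Ctrl was not among the 3 that held most of those of RP_UV.

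To find out whether the macrophage changes ran through the whole class, levels were set out for clusters with at least 50 cells of a library, 8 in WT_Ctrl, 9 in WT_UV and 6 in RP_UV. Ldha was at 105 to 244 in the clusters of WT_Ctrl, 115 to 286 in those of WT_UV and 253 to 322 in those of RP_UV. Each cluster of RP_UV thus lay above the highest of WT_Ctrl, with 253 as the lowest against 244, and no intervals were set on these levels. That WT_Ctrl cluster, led by Retnla, Lyz1 and Fn1, had 129 cells there and 22 in RP_UV, too few to be set out. The clusters compared thus differ between the libraries. Pkm overlapped, with 126 to 529, 131 to 448 and 281 to 580. The highest value of Pkm in WT_Ctrl was in a cluster led by Chil3, Plac8 and Ccr2 with 63 cells.

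Hk2 and Ndrg1 were unevenly spread in WT_UV. Clusters led by Ccl8 or Retnla had Hk2 at 14.7 to 35.9 and Ndrg1 at 3.11 to 9.68. The other 5 clusters of WT_UV, led by Cxcl2, Ms4a7, Chil3, Il1b or Nrg1, had Hk2 at 101 to 225 and Ndrg1 at 86.2 to 235. In the cluster led by Chil3, Plac8 and Ccr2, which held 63 cells of WT_Ctrl and 106 of WT_UV, Hk2 went from 78.3 to 225 and Ndrg1 from 35.2 to 135. Clusters of RP_UV had Hk2 at 13.3 to 96.6, the highest in a cluster of 52 shallow cells, and Ndrg1 at 0 to 48.7. Clusters were made without the members, but they were formed on these cells, so these values are a description.

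**Figure D5:**
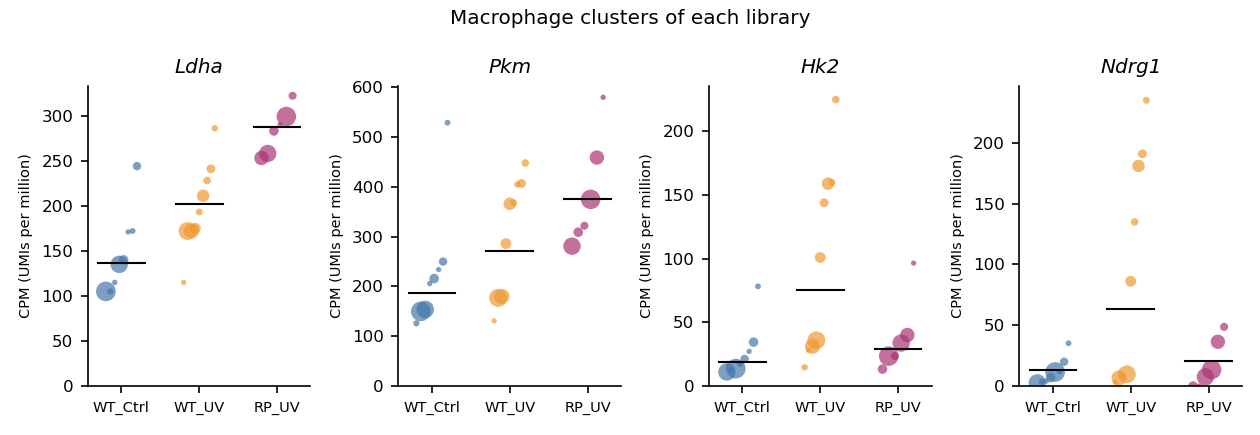
CPM (vertical axis, linear) of 4 members in macrophage clusters with at least 50 cells of a library (1 circle each, area in proportion to cells, sorted by level), with the level of the whole class as a black line. The circles of RP_UV lie at 253 or above for Ldha, and those of WT_UV fall into a low and a high set for Hk2 and Ndrg1.

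Macrophages of each library were spread over different clusters, with the largest led by Ccl8, F13a1 and Hal in WT_Ctrl (36.2%), by Ccl8, F13a1 and Cd209d in WT_UV (25.4%) and by Ccl8, C1qc and Pf4 in RP_UV (31.7%). In macrophages the neutrophil markers summed to 123, 109 and 83.3 CPM and the basal keratinocyte markers to 95, 43.1 and 127, against 17758, 15785 and 23198 for the macrophage markers. By the reckoning used for Slc16a3, neutrophil RNA could bring at most 4.33% of the level of any tested member in macrophages of RP_UV, and keratinocyte RNA, measured by Krt5 and Krt14, at most 1.32%.

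The order of the classes was described for each member within each library. In WT_Ctrl, where neutrophils were too few, the highest class stood apart from the next, its interval of the ratio leaving out 1, for 12 members in keratinocytes, 8 in dendritic cells, 4 in fibroblasts and 2 in macrophages. Aldoa, Tpi1, Pgam1, Eno1, Ldha, Ldhb, Pdk1 and Egln3 were highest in keratinocytes, and Slc2a3, Hk2, Gapdh, Pfkp and Aldoc in dendritic cells. In RP_UV, neutrophils stood first for 9 members, among them Slc2a1, Slc2a3, Slc16a3, Pkm, Egln3, Ankrd37 and Ero1l. For Slc16a3 the neutrophil level of RP_UV was 11.7 times that of dendritic cells, the next class, and for Slc2a3 it was 18.5 times. Adm and P4ha1 were highest in fibroblasts in WT_Ctrl and RP_UV. Neighbours in the order did not differ beyond counting error for Pgk1 and Pkm in WT_Ctrl, where keratinocytes and dendritic cells were at 134 and 122 for Pgk1 and at 241 and 256 for Pkm.

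The promoters of the members were searched for the core of the hypoxia response element, ACGTG or GCGTG, on both strands in the 250 bases before the start, in the RefSeq table of build GRCm38.p6. Overlapping matches counted separately, so that CACGTG gives a pair. Windows were found for 31 members, and Slc2a3, Bnip3l, Ndrg1 and Ero1l had none in this table. A core was in 37 of 44 member windows (84.1%) and in 12679 of all 32851 windows (38.6%). Both cores hold a CG, and among all windows with at least 14 CG, the median of the member windows, 67.3% had a core. A match is a description and not a bound site.

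The 4 windows shown belong to the members with the largest folds of an irradiated library over WT_Ctrl in macrophages or keratinocytes that hold a core. They run 5′ to 3′ on the strand of the gene, and capitals mark the cores, which read CACGT or CACGC where they lie on the other strand. In the windows shown, Slc16a1 has 4 matches, Hk2 has 2, and Ldhb and Pkm have 1 each. Pkm has another window, not shown, that holds no core.
Slc16a1 (chr3:104638414-104638663, + strand): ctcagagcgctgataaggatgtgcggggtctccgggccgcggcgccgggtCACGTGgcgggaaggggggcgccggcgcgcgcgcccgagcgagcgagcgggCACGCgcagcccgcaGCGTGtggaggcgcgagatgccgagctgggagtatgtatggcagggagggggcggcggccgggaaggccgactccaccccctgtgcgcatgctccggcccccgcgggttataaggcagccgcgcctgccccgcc
Hk2 (chr6:82774455-82774704, - strand): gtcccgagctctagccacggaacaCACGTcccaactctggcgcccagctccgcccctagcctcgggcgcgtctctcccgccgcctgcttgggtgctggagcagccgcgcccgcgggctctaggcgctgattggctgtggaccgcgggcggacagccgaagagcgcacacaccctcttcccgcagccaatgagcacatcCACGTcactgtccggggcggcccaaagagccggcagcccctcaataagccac
Ldhb (chr6:142507958-142508207, - strand): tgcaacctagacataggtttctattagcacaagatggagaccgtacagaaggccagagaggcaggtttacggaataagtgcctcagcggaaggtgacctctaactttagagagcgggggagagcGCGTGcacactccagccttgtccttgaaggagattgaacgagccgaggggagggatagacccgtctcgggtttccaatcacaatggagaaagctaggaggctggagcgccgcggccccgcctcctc
Pkm (chr9:59656977-59657226, + strand): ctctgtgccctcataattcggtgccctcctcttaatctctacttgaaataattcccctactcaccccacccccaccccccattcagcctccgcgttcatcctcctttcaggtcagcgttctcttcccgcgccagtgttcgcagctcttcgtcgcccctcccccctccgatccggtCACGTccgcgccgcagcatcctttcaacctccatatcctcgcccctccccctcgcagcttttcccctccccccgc
These genes differ in which library they followed: Hk2 was highest in WT_UV macrophages and keratinocytes, and the other 3 in RP_UV keratinocytes. Gpi1 and Tpi1 were the 2 members with a window in the table but no core in any of their windows. In RP_UV over WT_Ctrl, Tpi1 was past the fold in 3 classes and Gpi1 in fibroblasts. Whether cores go with folds was not tested.

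A list of 65 other genes of the same pathways was counted by the same rule, with the share of all genes tested in parentheses. In macrophages, 5 of 33 were higher (8.1%) and 0 were lower (3.65%) in WT_UV over WT_Ctrl, 10 of 33 were higher (14.2%) and 4 were lower (11.4%) in RP_UV over WT_Ctrl, and 4 of 33 were higher (8.08%) and 8 were lower (11.5%) in RP_UV over WT_UV. Pgf, which encodes placental growth factor, had 0 UMIs in macrophages of WT_Ctrl and 693 and 63 in WT_UV and RP_UV. With a floor of 3 counts set for WT_Ctrl, these were 66.1 and 14.5-fold higher. Pgf passed the filter in macrophages only through WT_UV, so its folds there are a description. Bhlhe40, a hypoxia-induced repressor, was 6.06-fold (4.3 to 8.82) and 2.39-fold (1.62 to 3.61) higher than in WT_Ctrl, and Mpc1, a subunit of the mitochondrial pyruvate carrier, 1.8-fold (1.67 to 1.94) and 2.82-fold (2.6 to 3.05). Ppfia4 was lower in RP_UV than in WT_Ctrl by a factor of 5.75 (4.18 to 8.03), Angptl4 by 3.57 (2.6 to 4.94) and Rora by 1.89 (1.48 to 2.41). Against WT_UV, Fam162a, Mpc1 and Mpc2 led the rises, at 1.66-fold (1.51 to 1.83), 1.56-fold (1.5 to 1.64) and 1.54-fold (1.45 to 1.62), and Ppfia4, Pgf and Angptl4 the falls, by factors of 5.91 (4.42 to 8.07), 4.57 (3.53 to 6.01) and 3.25 (2.46 to 4.36).

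Among dendritic cells, 6 of 31 were higher (9.61%) and 0 were lower (5.04%) in WT_UV over WT_Ctrl, led by Pgf at 26.8-fold (16.2 to 48.1), Bhlhe40 at 3.41-fold (2.86 to 4.11) and Mpc1 at 2.19-fold (1.98 to 2.43). In RP_UV over WT_Ctrl, 12 of 31 were higher (15.5%) and 5 were lower (10.8%), with Pgf at 25-fold (14.5 to 46.3), Bhlhe40 at 3.92-fold (3.08 to 4.97) and Mpc1 at 2.96-fold (2.57 to 3.41), and with Tfrc, the transferrin receptor, lower by a factor of 3.43 (1.99 to 6.41), Ppfia4 by 2.45 (1.68 to 3.68) and Rpia by 2.16 (1.03 to 5.22). In RP_UV over WT_UV, 3 of 31 were higher (9.62%) and 4 were lower (9.14%). Pgm2, Fam162a and Mxi1 were higher, and Tfrc fell most, by a factor of 2.44 (1.43 to 4.52).

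In keratinocytes, 4 of 30 were higher (5.85%) and 4 were lower (9.43%) in WT_UV over WT_Ctrl. Car12, a membrane carbonic anhydrase, was 2.34-fold (1.93 to 2.84) higher, Higd1a 1.68-fold (1.59 to 1.78) and Vegfa 1.64-fold (1.24 to 2.18), while Hif1an, which hydroxylates Hif1a, was lower by a factor of 2.03 (1.43 to 2.92), Bhlhe40 by 1.68 (1.45 to 1.95) and Cited2 by 1.67 (1.46 to 1.91). In RP_UV over WT_Ctrl, 7 of 30 were higher (14.4%) and 4 were lower (19.0%), and Car12 was 3.42-fold (2.86 to 4.11), Plin2, a coat protein of lipid droplets, 2.73-fold (2.43 to 3.08) and Tkt, transketolase of the pentose phosphate pathway, 2.15-fold (1.99 to 2.33) higher. Bhlhe40, Cited2 and Rora were lower by factors of 2 (1.72 to 2.33), 1.89 (1.65 to 2.17) and 1.97 (1.79 to 2.17). In RP_UV over WT_UV, 5 of 30 were higher (13.0%) and 2 were lower (10.6%). Plin2 led at 4.14-fold (3.58 to 4.81), and Insig2 and Vegfa fell by factors of 1.76 (1.52 to 2.04) and 1.57 (1.18 to 2.09).

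For fibroblasts, 15 of 38 were higher (17.4%) and 1 was lower (7.05%) in RP_UV over WT_Ctrl. Gpd1, which links glycolysis to glycerol, had 1 and 29 UMIs in WT_Ctrl and RP_UV, a ratio of 35.4 (5.86 to 1440). It passed the filter only through RP_UV. Epas1, the second hypoxia factor, was 2.93-fold (1.35 to 6.86) higher, and Rora was lower by a factor of 2.59 (2.02 to 3.34). In neutrophils, 1 of 31 was higher (5.97%) and 3 were lower (9.6%) in RP_UV over WT_UV. Tkt was 2.64-fold (1.29 to 6.27) higher, and the hypoxia targets Vegfa, Mxi1 and Bhlhe40 were lower by factors of 2.37 (1.43 to 3.86), 2.27 (1.32 to 3.78) and 2.14 (1.56 to 2.9).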

How the data were processed

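Single cells of mouse dorsal skin were profiled by 3′ sequencing in 3 groups with 1 library each. The deposited tables held unnormalized UMI counts, which per the file headers and processing notes were made with Cell Ranger 6.1.1 on build mm10. As in the study, cells with under 10% mitochondrial UMIs, over 200 genes and under 4000 genes (6000 in WT_UV) were kept. Seurat 5.3.0 with sctransform 0.4.2 clustered them without the members or the other pathway genes, scanpy 1.11.5 split the clusters, and the 137 clusters were named from marker genes (95) or left unnamed (42). Doublets were not removed, except that mixed clusters stayed unnamed.

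Raw counts were summed per library and class, from 26386 to 27570607 UMIs, and divided by the total. No test was possible with 1 library per group. The fold rule was checked on simulated counts. The members and lists were chosen with earlier results of these data known. Members past the fold were named, 7 were named in every class, and up to 3 other pathway genes were named in each direction. Alternatives were TMM factors (edgeR 4.0.16), DESeq2 1.42.0 size factors, other filters, thinned cells, means over cells, other class definitions and cells with high Scrublet scores left out. Promoters came from the RefSeq table of GRCm38.p6. A gene that the naming rule would name among the other pathway genes is not reported here.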

Additional observations from a re-analysis of the deposited data

Results flagged for a closer look

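In 3 members the libraries moved past the fold in opposite directions in different cell classes, and the difference between the classes was not tested. For RP_UV over WT_UV, Slc16a3 had a ratio of 1.62 in dendritic cells and 0.53 in macrophages. The dendritic call was lost with thinned cells, with means over cells and without the cluster led by Il1b. Egln3 had a ratio of 2.8 in neutrophils and 0.646 in keratinocytes for the same libraries, with 5 UMIs in neutrophils of WT_UV. For RP_UV over WT_Ctrl, which shared a flow cell, Ndrg1 had a ratio of 1.55 in macrophages, 2.44 in dendritic cells and 0.537 in keratinocytes. The macrophage call was lost with classes from marker UMIs, and the dendritic call with thinned cells and without the cluster led by Il1b. The keratinocyte call held under every alternative in which Ndrg1 was tested.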

How the results depend on the processing

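Of 110 calls of members, 52 were the same under every alternative in which the gene was tested, and the causes of the changes were not tested. No paired analysis was possible because each group had 1 library, and leaving out a library was not possible for the same reason. The alternative without the dendritic cluster led by Il1b was chosen after seeing the data. With 1 library per group, the intervals cover counting error only, and the sums with the fewest UMIs among those compared were neutrophils of WT_UV (191574) and RP_UV (944059), fibroblasts of RP_UV (1061550) and dendritic cells of RP_UV (1063889). Classes from marker UMIs left 10 dendritic cells in RP_UV, so that alternative gave no value there.

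Counts of members that moved by over 1.5 times were as follows. The share of all genes tested in that setting with the same direction of call is in parentheses. Without a filter on low levels, 36 rows were tested in macrophages and in keratinocytes. In WT_UV over WT_Ctrl, 1 was lower in macrophages (4.85%) and 2 in keratinocytes (7.48%). Macrophages had 2 higher (7.19%) and 7 lower (10.1%) in RP_UV over WT_UV, and 3 lower (9.22%) in RP_UV over WT_Ctrl. With the filter at 50 CPM, fewer genes were tested, which left 13, 15 and 15 members in macrophages, dendritic cells and keratinocytes. In the same order of classes, 4 (8.44%), 5 (9.4%) and 5 (6.93%) were higher in WT_UV over WT_Ctrl, with 0 lower (6.48%) in keratinocytes. For RP_UV over WT_UV this filter left 0 higher (10.2%) and 0 lower (10.1%) in macrophages. It also left 2 higher (9.86%) in dendritic cells and 0 lower (8.86%) in keratinocytes. For RP_UV over WT_Ctrl it left 0 lower (8.92%) in macrophages, 8 higher (18.5%) in dendritic cells and 0 lower (15.0%) in keratinocytes. With 4000 genes as the limit in all libraries, 3 of 26 were higher (12.0%) and 5 lower (13.7%) in RP_UV over WT_UV in macrophages. For the same libraries, 2 of 28 were lower in keratinocytes (9.35%). For WT_UV over WT_Ctrl, 1 of 28 was lower in dendritic cells (5.95%) and 5 of 28 higher in keratinocytes (4.34%).

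With cells thinned to 1000 UMIs, 2 of 29 were higher in neutrophils (2.37%) and 6 of 29 in fibroblasts (6.41%). For RP_UV over WT_Ctrl, 0 of 25 were lower in macrophages (10.6%) and 8 of 28 higher in dendritic cells (8.14%). Dendritic cells had 3 of 28 higher (5.34%) and 0 lower (3.43%) in RP_UV over WT_UV, and keratinocytes 1 of 27 lower (5.87%). For WT_UV over WT_Ctrl, 5 of 27 were higher (5.08%) and 3 lower (9.89%) in keratinocytes. With means over cells, 0 of 26 were lower in macrophages for RP_UV over WT_Ctrl (10.8%), and 5 of 28 higher in keratinocytes for WT_UV over WT_Ctrl (7.77%). With classes from marker UMIs, 4 of 30 were lower in neutrophils (13.2%) and 1 of 29 in fibroblasts (7.34%). WT_UV over WT_Ctrl had 1 of 28 lower in macrophages (3.38%), and 4 of 28 higher (7.25%) and 6 lower (8.21%) in dendritic cells. This comparison had 0 of 30 lower in keratinocytes (9.48%), and RP_UV over WT_UV had 2 of 28 higher in macrophages (9.38%). TMM and DESeq2 factors each left 2 of 29 higher in keratinocytes for RP_UV over WT_UV (11.1% and 11.3%). Without the cluster led by Il1b, 27 members were tested in dendritic cells. Of these, 4 were higher in WT_UV over WT_Ctrl (6.77%), 3 in RP_UV over WT_UV (11.6%) and 7 in RP_UV over WT_Ctrl (14.3%). Basal-like clusters alone left 3 of 28 lower in keratinocytes for RP_UV over WT_Ctrl (19.5%).

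Log2 folds turned to the other side of 0 for 8 members. With classes from marker UMIs, WT_UV over WT_Ctrl in dendritic cells gave -0.25 for Slc2a1, -0.42 for Slc16a3, -0.21 for Hif1a and -1.01 for Ddit4. With thinned cells, Aldoc was at 0.09 and 0.18 in dendritic cells of RP_UV over WT_UV and over WT_Ctrl, Pdk1 at 0.28 in keratinocytes of RP_UV over WT_UV, and Gpi1 at -0.18 in fibroblasts. Without the cluster led by Il1b, Ddit4 was at -0.91 and -0.49 in dendritic cells of RP_UV over WT_UV and over WT_Ctrl. Slc16a1 in keratinocytes of WT_UV over WT_Ctrl was at -1.03 with thinned cells, -0.16 with means over cells and -0.03 with classes from marker UMIs. The median log2 fold of the members in RP_UV over WT_Ctrl ranged from 0.37 to 0.62 in macrophages, 0.22 to 0.86 in dendritic cells, -0.02 to 0.61 in keratinocytes and 0.48 to 0.67 in fibroblasts.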
